A study of Homo sapiens with 10 samples.

Results

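RNA polymerases I, II and III, the nuclear enzymes that copy DNA into RNA, were described here through the mRNAs of their subunits after siRNA against Che-1, the protein encoded by AATF. The set held every gene with a probe set that carries a single symbol starting with POLR1, POLR2 or POLR3, with POLRMT left out, and used the probe set of highest mean level for each gene. It came to 31 genes of the 18417 measured, read by 33 probe sets. Of the 31, 29 encode core subunits and 2 do not (POLR2M and POLR1HASP). POLR2J2 and POLR2J3, copies of POLR2J, have only probe sets listed under several symbols and were not tested. The levels are log2 probe set intensities from Affymetrix whole-transcript arrays. RNA came from the human breast cancer lines SKBR3 and MDA-468, both labelled as expressing mutant p53 and both grown in RPMI medium with serum. Cells received a control RNA duplex (siControl) or a duplex against Che-1 (siChe-1) by transient transfection and were analysed at 48 h. SKBR3 had 2 arrays with siControl and 2 with siChe-1, and MDA-468 had 3 of each. Separate cultures for replicate arrays are not stated in the labels, so the p-values rest on a spread that may be technical.

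Each polymerase works in its own territory. Pol I makes the large ribosomal RNA precursor in the nucleolus, Pol II makes mRNAs and many small nuclear RNAs, and Pol III makes transfer RNAs, the smallest ribosomal RNA and other short RNAs. In every enzyme a pair of large subunits forms the active centre, a group of small subunits is common to all of them, and further subunits are particular to each enzyme. Che-1 was found as a protein that binds Pol II through its subunit POLR2J, and it also takes part in ribosome assembly. The comparison of siChe-1 with siControl asks whether the mRNAs of the polymerase itself change when Che-1 is depleted.

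AATF stood at 8.69 and 8.68 on the SKBR3 siControl arrays and at 8.09 and 7.97 on the siChe-1 arrays. In MDA-468 it stood at 8.86, 8.87 and 8.90 with siControl and at 7.08, 7.13 and 7.29 with siChe-1. The groups did not overlap in either line, and 63.3% of the control signal remained in SKBR3 and 30.5% in MDA-468. The log2 change was −0.66 ± 0.10 (SE) in SKBR3 and −1.71 ± 0.08 in MDA-468 (limma, Benjamini-Hochberg adjusted p = 0.000778 and 2.16e-08). AATF loss and a response to this single duplex cannot be told apart, and IFIT1, an interferon-induced gene, rose by 8.00 in SKBR3 and 7.61 in MDA-468. Of 5 breast epithelial markers, 4 had group means above the filter level in SKBR3 and 5 in MDA-468. The exception was CDH1 at 5.12 in SKBR3 siControl. ERBB2 (12.33) marked SKBR3, and EGFR (12.25) and KRT5 (12.47) marked MDA-468. Of 6 fibroblast markers, DCN, LUM and PDGFRB lay below the filter on the mean over all arrays. COL1A1, COL1A2 and COL3A1 passed it, though the group means of COL3A1 were below it in SKBR3. The mean of the 6 was between 5.11 and 5.65 on every array. All 3 endothelial markers (PECAM1, CDH5, VWF) lay below the filter. Of 4 leukocyte markers measured, PTPRC and CD3E lay below it. CD14 and CD68 passed it on the mean over all arrays, though both group means of CD14 were below it in SKBR3. The means of CD14 and CD68 were higher with siChe-1 in both lines, with no test given here. CD14 went from 5.42 to 5.94 in SKBR3 and from 9.51 to 10.15 in MDA-468, and CD68 from 6.89 to 8.38 and from 6.88 to 7.34. In SKBR3 the mean of the 4 markers lay at 5.05 and 5.23 on the siControl arrays and at 5.55 and 5.81 on the siChe-1 arrays. In MDA-468 its lowest and highest values were 6.21 and 6.31 with siControl and 6.41 and 6.51 with siChe-1. The part of these markers in the subunit results was not tested. In such bulk RNA, fewer cells of a type and less RNA per cell cannot be told apart.

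Promoter sequence is shown for the subunit genes POLR2B, POLR2D, POLR2H and POLR3B. POLR2D, POLR2H and POLR3B fell in both lines, and POLR2B is the second large subunit of Pol II and fell by 0.81 in MDA-468. Each window holds the 250 bases before the annotated start (RefSeq, GRCh38.p14), printed 5′ to 3′ on the gene's strand, with the GC box and, in POLR3B, the CCAAT box in capitals. The GC box was searched as GGGCGG and the CCAAT box as CCAAT, on both strands, so that capitals reading CCGCCC or ATTGG are matches on the other strand.
POLR2B, chr4:56978646-56978895 (plus strand): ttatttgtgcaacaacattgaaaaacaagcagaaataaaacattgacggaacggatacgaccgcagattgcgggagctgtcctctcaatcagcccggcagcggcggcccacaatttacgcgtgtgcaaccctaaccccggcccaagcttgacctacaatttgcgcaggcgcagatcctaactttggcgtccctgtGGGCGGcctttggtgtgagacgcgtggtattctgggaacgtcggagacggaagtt
POLR2D, chr2:127858156-127858405 (minus strand): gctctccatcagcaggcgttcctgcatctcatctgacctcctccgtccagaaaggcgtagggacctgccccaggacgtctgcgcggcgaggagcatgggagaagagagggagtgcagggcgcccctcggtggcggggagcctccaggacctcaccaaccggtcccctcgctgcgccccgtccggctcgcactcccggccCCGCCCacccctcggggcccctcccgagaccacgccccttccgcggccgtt
POLR2H, chr3:184361460-184361709 (plus strand): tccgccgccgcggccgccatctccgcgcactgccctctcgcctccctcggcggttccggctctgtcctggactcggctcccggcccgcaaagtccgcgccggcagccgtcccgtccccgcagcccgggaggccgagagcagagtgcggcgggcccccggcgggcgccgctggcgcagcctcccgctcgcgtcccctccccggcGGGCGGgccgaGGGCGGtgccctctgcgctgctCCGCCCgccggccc
POLR3B, chr12:106357498-106357747 (plus strand): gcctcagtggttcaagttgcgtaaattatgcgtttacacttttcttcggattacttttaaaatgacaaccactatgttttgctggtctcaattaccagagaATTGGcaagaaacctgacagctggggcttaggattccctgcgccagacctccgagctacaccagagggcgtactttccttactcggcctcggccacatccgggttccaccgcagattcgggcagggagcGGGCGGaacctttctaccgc

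Windows were found for 22 of the 29 measured core subunits and for 27305 genes in all. None was found for POLR1E, POLR2G, POLR2I, POLR2J, POLR2K, POLR3D and POLR3G, among them POLR2G, the deepest fall in MDA-468. The 22 include POLR3GL, which lay below the filter, so they are not the same subunits as the 28 tested. A GC box lay in 14 of the 22 subunit windows (63.6%) and in 42.3% of all windows. The ETS core CCGGAAG lay in 6 (27.3%) and in 8.82% of all windows, and the E-box CACGTG in 3 (13.6%) and 6.49%. CCAAT lay in 5 (22.7%) and in 33% of all windows. TATAAA was in 0 of the 22 subunit windows and in 11.1% of all windows, and the YY1 motif in 0 and 0.359%. The NRF1 motif was in the window of POLR2F alone among the 22 (1.13% of all windows), and the interferon-stimulated response element in that of POLR3A alone (3.07%). All motifs were searched on both strands. These matches describe letters in short windows and are not evidence of binding.

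In MDA-468, 17 of the 28 core subunits tested fell with siChe-1 and 0 rose. A fall or rise means an adjusted p below 0.05 in limma's fit over all 12892 genes tested, and by that rule 43.5% of all genes were called in this line, 27% lower and 16.4% higher. The median subunit change was −0.31, against −0.02 over all genes. At an unadjusted p under 0.05, 18 subunits were lower and 1 was higher. When the values were quantile-normalized again, 16 were lower and 2 (POLR1F and POLR3A) were higher. In 19 subunits every siChe-1 array lay below every siControl array, which held for 36% of all genes, and in 2 every siChe-1 array lay above (23.9% of all genes). Of the 17 that fell, 10 were called under all 18 alternative settings (POLR1E, POLR1H, POLR2B, POLR2C, POLR2F, POLR2G, POLR2I, POLR2L, POLR3B and POLR3G), and all 17 kept their sign. An adjusted p given below as "at most" is the highest over all alternatives of that call.

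In SKBR3, 7 of the 28 core subunits fell (25%) and 0 rose, where 23.7% of all genes were called, 17.1% lower and 6.64% higher. The 7 were POLR2D, POLR2H, POLR2K, POLR3B, POLR3F, POLR3G and POLR3K. The median change was −0.15 against −0.08 over all genes. At an unadjusted p under 0.05, 11 subunits were lower and 1 was higher, and with quantile normalization again 6 were lower and 1 (POLR3D) was higher. All siChe-1 arrays lay below all siControl arrays in 15 subunits (37.8% of all genes) and above in 1 (14.5%). The SKBR3 count rested on few arrays. It was 3 without siControl replicate 1, 1 without siControl replicate 2, 12 without siChe-1 replicate 1, and 3 (1 higher) without siChe-1 replicate 2. Through the shared estimate of the spread it was also 4 without any of the 3 MDA-468 siControl arrays in turn and 2 without MDA-468 siChe-1 replicate 2. With SKBR3 fitted alone it was 0, with 4 at an unadjusted p under 0.05. Over all genes tested, the SKBR3 siChe-1 arrays were the least alike of any group, with a correlation of 0.978. It was 0.992 for SKBR3 siControl and from 0.9896 to 0.9957 within the MDA-468 groups. In each of the 7 subunits, siChe-1 replicate 2 read below siChe-1 replicate 1.

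**Figure D1:**
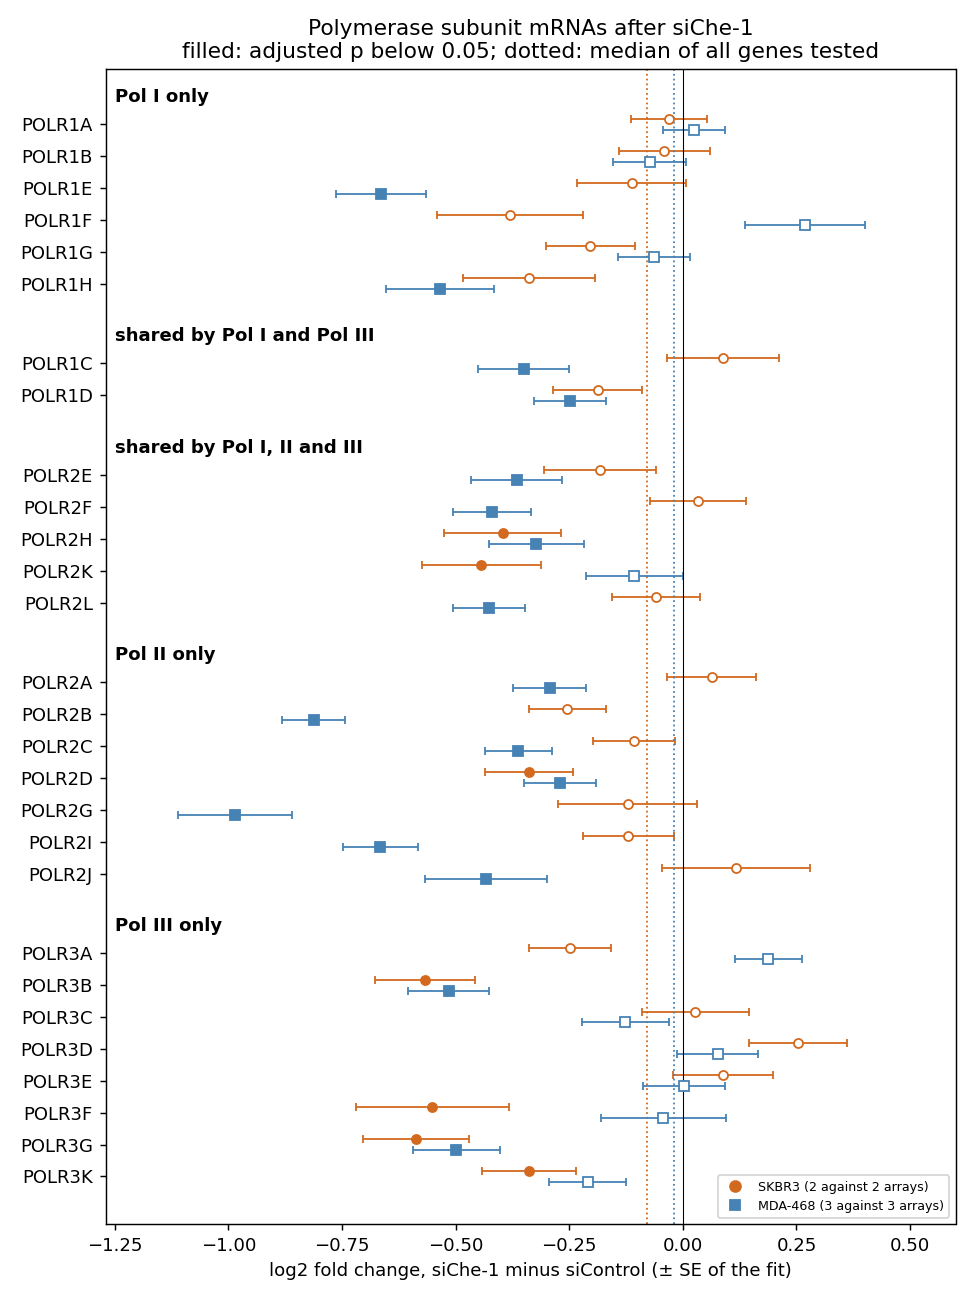
The log2 fold change of each tested core subunit (siChe-1 minus siControl, x axis, with the SE of the fit) is plotted by polymerase, with SKBR3 as circles and MDA-468 as squares; filled symbols have an adjusted p below 0.05 and dotted lines mark the median of all genes. All 7 subunits found in Pol II alone have filled squares left of 0, and the lowest point is POLR2G in MDA-468 at −0.98.

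The counts are given by polymerase beside the share of all genes that fell, 27% in MDA-468 and 17.1% in SKBR3. Among the 7 subunits found in Pol II alone, 7 fell in MDA-468 (median −0.43) and 1 in SKBR3 (median −0.12). These include POLR2J, for which probe sets shared with its copies did not all move down in MDA-468. Of the 5 subunits common to all enzymes, 4 fell in MDA-468 (median −0.37) and 2 in SKBR3 (−0.18, with a range from −0.32 to −0.04 over the alternatives). Of the 6 found in Pol I alone, 2 fell in MDA-468 (−0.07) and 0 in SKBR3 (−0.16), where 2 were lower at an unadjusted p under 0.05. Both subunits that Pol I shares with Pol III fell in MDA-468 (median −0.30) and neither in SKBR3, where the median of −0.05 ranged from −0.17 to 0.07 over the alternatives. Of the 8 tested subunits found in Pol III alone, 2 fell in MDA-468 (−0.08) and 4 in SKBR3 (−0.29). Counted together, 11 of 12 subunits with a place in Pol II fell in MDA-468 (91.7%) and 3 of 12 in SKBR3 (25%). The shares of Pol I alone (33.3%) and Pol III alone (25%) in MDA-468, and of Pol II alone (14.3%) in SKBR3, were near those of all genes. The groups of subunits were not tested against each other.

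Among the Pol II subunits, POLR2G showed the largest fall in MDA-468. It encodes a part of the stalk that binds the emerging RNA, together with the product of POLR2D. POLR2G stood at 10.32, 10.62 and 10.14 on the MDA-468 siControl arrays and at 9.46, 9.44 and 9.22 on the siChe-1 arrays. The siChe-1 arrays all lay below, at 50.5% of control, a log2 change of −0.98 ± 0.13 (adjusted p = 7.99e-05). Of the 12892 genes tested, 257 had a lower log2 change in this line, whether called or not. In SKBR3 it stood at 8.59 and 8.83 with siControl and 8.54 and 8.65 with siChe-1, and these arrays overlapped (−0.12 ± 0.15, adjusted p = 0.627). Its partner POLR2D fell in both lines, to 82.9% of control in MDA-468 (−0.27 ± 0.08, adjusted p = 0.0162) and 79.1% in SKBR3 (−0.34 ± 0.10, adjusted p = 0.0278). With 1 array left out, the POLR2D call was lost in MDA-468 without siControl replicate 1 or siChe-1 replicate 2, and in SKBR3 without SKBR3 siControl replicate 2, SKBR3 siChe-1 replicate 2 or MDA-468 siChe-1 replicate 2 (adjusted p at most 0.0801 and 0.256).

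The active centre of Pol II is built from POLR2A, which carries the repetitive C-terminal tail, and POLR2B. POLR2B stood at 11.64, 11.67 and 11.62 on the MDA-468 siControl arrays and at 10.80, 10.82 and 10.87 on the siChe-1 arrays. Replicates lay close together and the groups were well apart, with siChe-1 at 56.9% of control (−0.81 ± 0.07, adjusted p = 3.75e-06). In SKBR3 POLR2B stood at 11.58 and 11.61 with siControl and at 11.39 and 11.28 with siChe-1. The SKBR3 groups did not overlap either, but the change of −0.25 ± 0.08 missed the threshold (adjusted p = 0.0506). POLR2A moved less in MDA-468, from 8.82, 8.90 and 8.85 to 8.67, 8.50 and 8.51. All siChe-1 arrays were again below (81.6% of control, −0.29 ± 0.08, adjusted p = 0.012). With 1 array left out, that call was lost without siControl replicate 2 or siChe-1 replicate 2, and its adjusted p was at most 0.0578 over all alternatives. In SKBR3 POLR2A overlapped between groups (0.06 ± 0.10, adjusted p = 0.699). Both large subunits were thus lower in MDA-468, POLR2B by more than POLR2A on the log2 scale, which was not tested.

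POLR2J, the Pol II subunit through which Che-1 is known to bind, pairs with POLR2C in the assembly platform of the enzyme. Its MDA-468 arrays read 9.05, 9.29 and 8.84 with siControl and 8.78, 8.67 and 8.43 with siChe-1. The groups did not overlap but lay close (74.1% of control, −0.43 ± 0.13, adjusted p = 0.0211). The call was lost when the values were quantile-normalized again and without siControl replicate 1, siControl replicate 2 or siChe-1 replicate 3, with an adjusted p of at most 0.0961. In SKBR3 POLR2J read 8.77 and 8.73 with siControl and 8.69 and 9.04 with siChe-1. These overlapped (0.12 ± 0.16, adjusted p = 0.662), and its siChe-1 arrays lay on both sides of the controls. POLR2J has near-identical copies in the genome, so its probe set may also read them. Probe sets listed under POLR2J together with its copies moved by −0.01, 0.15 and 0.03 in MDA-468, which was not tested. POLR2C, its partner, fell to 77.8% of control in MDA-468 (−0.36 ± 0.07, adjusted p = 0.00212) and was at −0.11 ± 0.09 in SKBR3 (adjusted p = 0.444).

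POLR2I, a zinc-binding subunit that acts in start site choice and proofreading, stood at 9.72, 9.74 and 9.62 on the MDA-468 siControl arrays and at 9.13, 9.04 and 8.91 on the siChe-1 arrays. All siChe-1 arrays were below, at 63.1% of control (−0.67 ± 0.08, adjusted p = 6.5e-05). In SKBR3 its arrays read 9.01 and 9.04 with siControl and 8.83 and 8.98 with siChe-1 (−0.12 ± 0.10, adjusted p = 0.44).

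**Figure D2:**
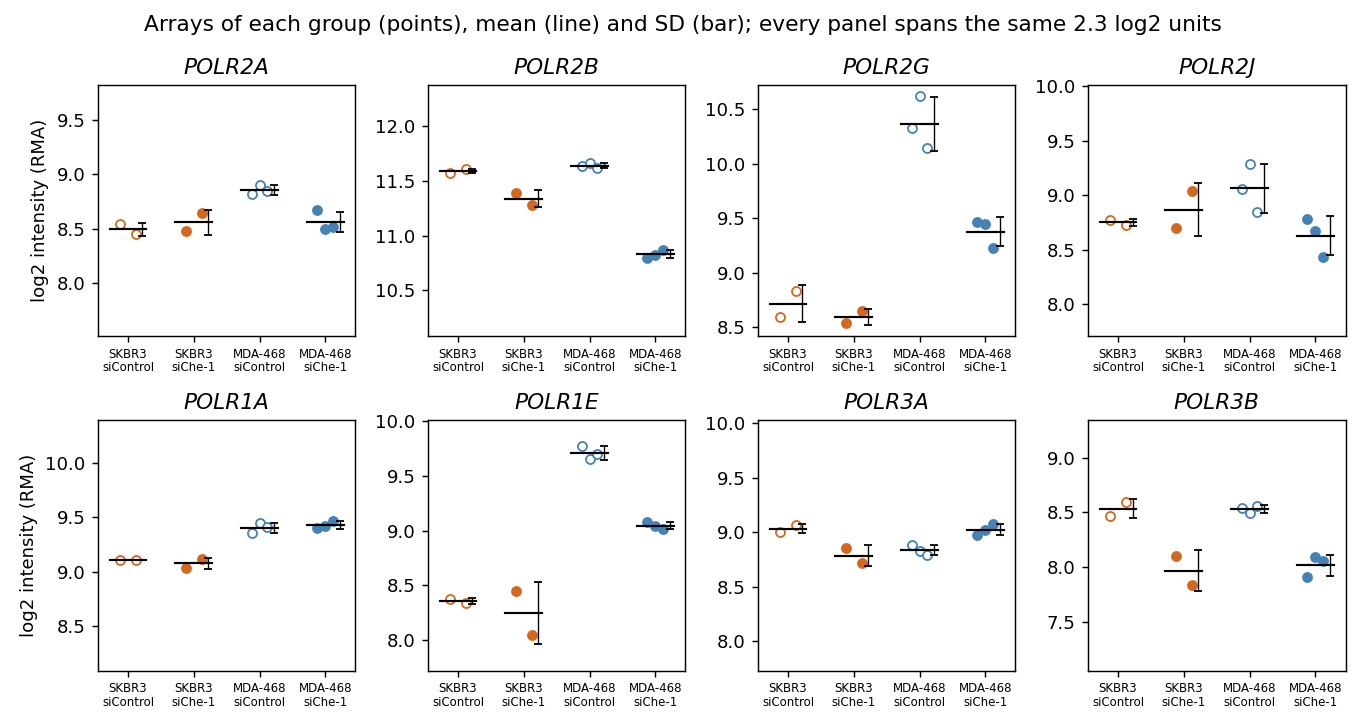
Log2 intensity (y axis) of 8 subunit mRNAs on every array, by line and treatment, with the mean as a line and the SD as a bar; every panel spans the same range. The MDA-468 siChe-1 arrays lie below the siControl arrays for POLR2A, POLR2B, POLR2G, POLR2J, POLR1E and POLR3B, overlap them for POLR1A and lie above them for POLR3A.

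The 5 subunits common to all nuclear polymerases were POLR2E, POLR2F, POLR2H, POLR2K and POLR2L, small proteins that support assembly and the shape of the core. POLR2H was called in both lines, at 80% of control in MDA-468 (−0.32 ± 0.11, adjusted p = 0.0278) and 76% in SKBR3 (−0.40 ± 0.13, adjusted p = 0.0464). Neither call was firm. With 1 array left out, the MDA-468 call was lost without siControl replicate 1 or 3 and without any of the siChe-1 arrays in turn, with an adjusted p of at most 0.103, and in SKBR3 it held in 7 of 19 alternatives. Among the settings that leave 1 array out, the SKBR3 call held without siChe-1 replicate 1 alone. POLR2L read 10.64, 10.70 and 10.67 in MDA-468 siControl and 10.36, 10.26 and 10.12 with siChe-1. The siChe-1 arrays were all lower (74.4% of control, −0.43 ± 0.08, adjusted p = 0.00116). POLR2F and POLR2E fell in MDA-468 to 74.8% and 77.6% of control (−0.42 ± 0.09 and −0.37 ± 0.10, adjusted p = 0.00223 and 0.0121), and the POLR2E call was lost without siChe-1 replicate 3 (adjusted p = 0.0504). In SKBR3 POLR2E, POLR2F and POLR2L did not pass the test, at −0.18, 0.03 and −0.06.

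POLR2K was called in SKBR3 and not in MDA-468. Its SKBR3 arrays read 9.20 and 9.32 with siControl and 9.04 and 8.61 with siChe-1, and both siChe-1 arrays were lower (73.6% of control, −0.44 ± 0.13, adjusted p = 0.0309). The call was lost with SKBR3 fitted alone and with the replicate number as a block. Among the settings that leave 1 array out, it was lost without SKBR3 siControl replicate 1 or 2, SKBR3 siChe-1 replicate 2 or MDA-468 siChe-1 replicate 2 (adjusted p at most 0.2). In MDA-468 POLR2K read 11.26, 11.11 and 11.13 with siControl and 11.05, 11.11 and 11.02 with siChe-1, which was −0.11 ± 0.11 (adjusted p = 0.46). The difference between the lines was not called for POLR2K.

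Within Pol I the catalytic pair did not pass the test in either line. POLR1A, the largest subunit, read 9.35, 9.44 and 9.41 in MDA-468 siControl and 9.40, 9.42 and 9.47 with siChe-1. These groups overlapped, and the change was 0.03 with a 95% interval from −0.13 to 0.18. POLR1B, the second large subunit, was at −0.07 in MDA-468 (95% interval −0.25 to 0.11). In SKBR3 they were at −0.03 and −0.04.

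POLR1E and POLR1G form a Pol I subunit pair that resembles the Pol II factor TFIIF. POLR1E read 9.77, 9.65 and 9.70 in MDA-468 siControl and 9.08, 9.04 and 9.01 with siChe-1. All siChe-1 arrays were lower, at 63.1% of control (−0.66 ± 0.10, adjusted p = 0.00024). In SKBR3 POLR1E read 8.37 and 8.34 with siControl and 8.44 and 8.04 with siChe-1, which overlapped (−0.11 ± 0.12, adjusted p = 0.556). POLR1G did not pass the test, at −0.06 ± 0.08 in MDA-468 and −0.20 ± 0.10 in SKBR3 (adjusted p = 0.561 and 0.158).

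POLR1H, the small zinc-ribbon subunit of Pol I that acts in RNA cleavage, read 8.62, 8.59 and 8.72 in MDA-468 siControl and 8.22, 8.19 and 7.93 with siChe-1. The siChe-1 arrays were all lower, at 69.1% of control (−0.53 ± 0.12, adjusted p = 0.00353). A second POLR1H probe set moved by −0.42 in MDA-468 and −0.11 in SKBR3, against −0.34 in SKBR3 for the one used. POLR1F, the stalk subunit of Pol I, read 8.20 and 8.38 in SKBR3 siControl and 8.15 and 7.67 with siChe-1. In MDA-468 it read 9.12, 8.89 and 9.14 with siControl and 9.16, 9.44 and 9.35 with siChe-1. The SKBR3 siChe-1 arrays thus lay below their controls and the MDA-468 siChe-1 arrays above theirs, and neither change passed alone (−0.38 and 0.27, adjusted p = 0.111 and 0.125). POLR1C and POLR1D, the assembly pair that Pol I shares with Pol III, fell in MDA-468 to 78.5% and 84.2% of control (−0.35 ± 0.10 and −0.25 ± 0.08, adjusted p = 0.015 and 0.0253). Among the settings that leave 1 array out, the POLR1C call was lost without siControl replicate 1, and that of POLR1D without siControl replicate 1 or 2 or siChe-1 replicate 1 or 2 (adjusted p at most 0.0583 and 0.108). In SKBR3 they were at 0.09 and −0.19 and did not pass.

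Of the catalytic pair of Pol III, POLR3B was called in both lines and POLR3A in neither. POLR3B, the second large subunit, read 8.47 and 8.60 in SKBR3 siControl and 8.10 and 7.83 with siChe-1. In MDA-468 it read 8.54, 8.49 and 8.56 with siControl and 7.91, 8.09 and 8.06 with siChe-1. All siChe-1 arrays of both lines were lower, at 67.5% of control for SKBR3 (−0.57 ± 0.11, adjusted p = 0.00445) and 70% in MDA-468 (−0.52 ± 0.09, adjusted p = 0.000735). The SKBR3 call held in 18 of 19 alternatives and was lost with SKBR3 fitted alone (adjusted p = 0.0878). POLR3A, the largest subunit, read 9.00 and 9.06 in SKBR3 siControl and 8.85 and 8.71 with siChe-1. In MDA-468 it read 8.88, 8.83 and 8.79 with siControl and 8.98, 9.02 and 9.08 with siChe-1. Groups were apart in both lines but in opposite directions, and neither passed alone (−0.25 and 0.19, adjusted p = 0.0684 and 0.0587).

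POLR3C, POLR3F and POLR3G form the subcomplex that Pol III uses to open the promoter. POLR3G, the isoform known from embryonic and tumour cells, read 7.89 and 8.03 in SKBR3 siControl and 7.48 and 7.27 with siChe-1. In MDA-468 it read 8.21, 8.18 and 8.02 with siControl and 7.70, 7.72 and 7.49 with siChe-1. No array overlapped in either line, and siChe-1 was at 66.6% of control for SKBR3 (−0.59 ± 0.12, adjusted p = 0.00528) and 70.8% in MDA-468 (−0.50 ± 0.10, adjusted p = 0.00142). The SKBR3 call was lost without siControl replicate 2 and with SKBR3 fitted alone (adjusted p at most 0.0731). POLR3F read 8.18 and 8.36 in SKBR3 siControl and 8.04 and 7.40 with siChe-1. Both siChe-1 arrays were lower but far apart (68.3% of control, −0.55 ± 0.17, adjusted p = 0.0369), and the call held in 8 of 19 alternatives. Of the settings that leave 1 array out, it held without SKBR3 siChe-1 replicate 1 and without MDA-468 siChe-1 replicate 1. In MDA-468 POLR3F was at −0.04 ± 0.14. POLR3C was not called in either line, at 0.03 in SKBR3 and −0.13 in MDA-468.

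Of the other Pol III subunits, POLR3K was called in SKBR3 and the rest were not called or lay below the filter. POLR3D and POLR3E, a pair that resembles TFIIF, were at 0.25 and 0.09 in SKBR3 and at 0.08 and 0.00 in MDA-468, and none of these passed the test. POLR3K, the subunit for RNA cleavage and termination, fell in SKBR3 to 79.1% of control (−0.34 ± 0.10, adjusted p = 0.0363), a call that held in 8 of 19 alternatives. With 1 array left out, it held without SKBR3 siChe-1 replicate 1 and without MDA-468 siChe-1 replicate 1 or 3. In MDA-468 it was at −0.21 ± 0.08 (adjusted p = 0.0658). POLR3GL, the isoform of POLR3G found in most tissues, lay below the filter on the mean over all arrays. In MDA-468 it read 7.07, 6.99 and 6.85 with siControl and 6.17, 6.51 and 6.36 with siChe-1, all lower, and the fit without the filter gave −0.62 ± 0.12 (adjusted p = 0.00136). In SKBR3 it was at −0.05.

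The genes of the set that encode no core subunit were POLR2M and POLR1HASP. POLR2M encodes a protein that binds Pol II and makes it dependent on the Mediator complex. It read 8.98 and 9.10 in SKBR3 siControl and 8.76 and 8.31 with siChe-1. In MDA-468 it read 9.62, 9.59 and 9.51 with siControl and 9.10, 9.14 and 9.08 with siChe-1. All siChe-1 arrays were lower in both lines, at 70.6% and 72.4% of control (−0.50 ± 0.13 and −0.47 ± 0.11, adjusted p = 0.0178 and 0.00407). The SKBR3 call was lost with SKBR3 fitted alone and with the replicate number as a block. It was also lost without SKBR3 siControl replicate 2 or SKBR3 siChe-1 replicate 2 (adjusted p at most 0.157). A second POLR2M probe set moved by −0.44 in both lines. POLR1HASP, an antisense RNA at the POLR1H locus, was below the filter, and the fit without it gave −0.71 ± 0.18 in SKBR3 (adjusted p = 0.0238) and −0.11 ± 0.15 in MDA-468 (adjusted p = 0.628).

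The changes of the lines were compared directly by subtracting the MDA-468 change from the SKBR3 change. This difference was called for 7 of the 28 core subunits (25%), against 19.2% of all genes. It was above 0 in 5, which means a deeper fall in MDA-468, where 8.49% of all genes were called, and below 0 in 2 (10.7% of all genes). The 5 were POLR2G (0.86 ± 0.20, adjusted p = 0.0118), POLR2B (0.56 ± 0.11, adjusted p = 0.00523), POLR1E (0.55 ± 0.16, adjusted p = 0.0306), POLR2I (0.55 ± 0.13, adjusted p = 0.0143) and POLR2F (0.45 ± 0.14, adjusted p = 0.0407). Those below 0 were POLR1F (−0.65 ± 0.21, adjusted p = 0.05, just inside the threshold) and POLR3A (−0.44 ± 0.12, adjusted p = 0.0236), which were lower with siChe-1 in SKBR3 and higher in MDA-468. POLR2J, the subunit known to bind Che-1, had a difference of 0.55 ± 0.21 that missed the threshold (adjusted p = 0.095). Of the 7, POLR2B, POLR2G and POLR2I were called in 17 of 18 alternatives, and POLR2G was lost without SKBR3 siControl replicate 1 (adjusted p = 0.054). POLR3A was called in 12 of 18, POLR1E in 9, POLR2F in 8 and POLR1F in 7. The count was 3 without SKBR3 siControl replicate 1 or 2, MDA-468 siControl replicate 2, or MDA-468 siChe-1 replicate 2 or 3. It was 4 without MDA-468 siControl replicate 1 or 3 and 11 without SKBR3 siChe-1 replicate 1. AATF itself fell further in MDA-468, by a difference of 1.05 on the log2 scale (adjusted p = 0.000215), and its part in these differences was not tested.

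**Figure D3:**
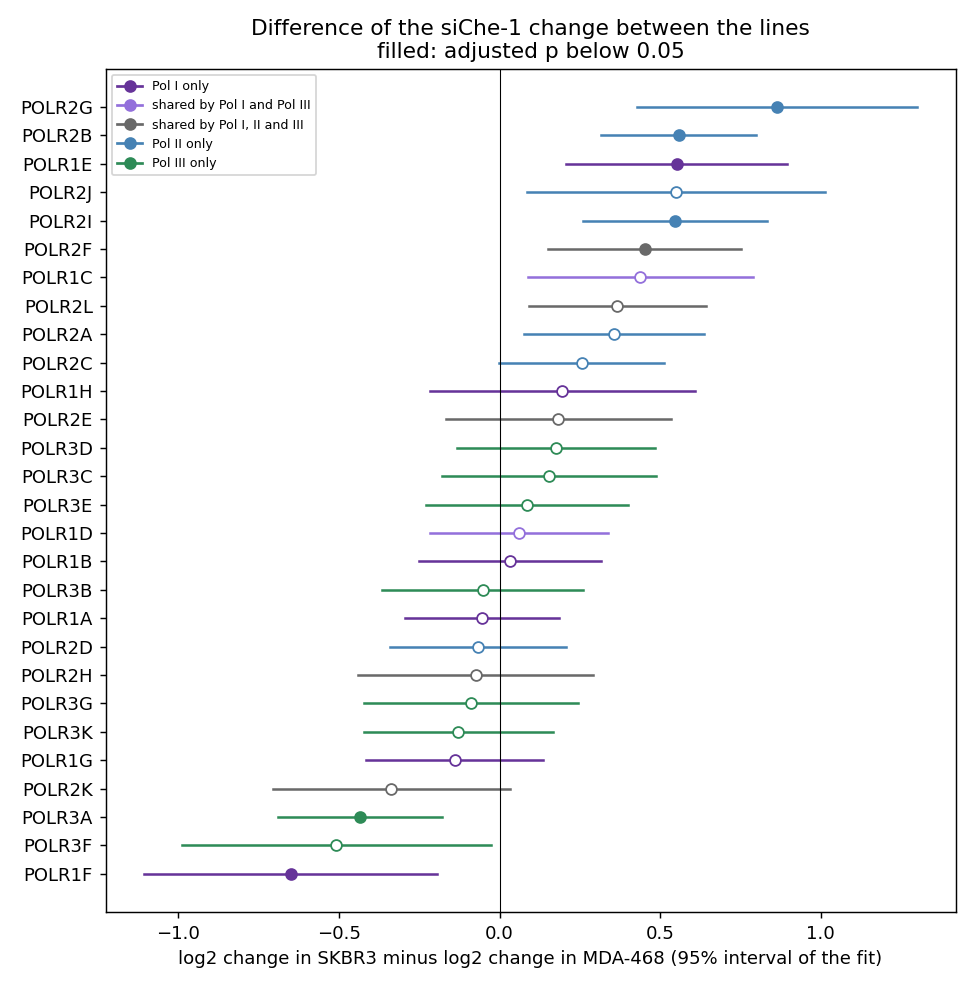
Difference of the siChe-1 change between the lines (SKBR3 minus MDA-468, log2, x axis) with the 95% interval of the fit for each tested core subunit, coloured by polymerase; filled points have an adjusted p below 0.05. POLR2G is at 0.86 and POLR1F at −0.65, the ends of the range.

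With siControl alone the subunit levels were compared between the lines. The labels do not say whether the lines were processed together, so line and processing cannot be told apart. The siChe-1 changes above used the values as deposited. The medians of the SKBR3 arrays (6.36 to 6.45) were below those of the MDA-468 arrays (6.87 to 6.94), so the values were quantile-normalized over all arrays for this comparison. On that scale 12 subunits were higher in SKBR3 and 8 were lower, a share of 71.4% called, near the 69.3% of all genes. With the values as deposited 2 were higher and 18 lower, and with arrays centred on their medians 9 and 9. The median of all genes was 0.07 after quantile normalization, −0.48 as deposited and 0.02 after centring, so only calls that held on all of these scales are named. Lower in SKBR3 on every scale were POLR1C, POLR1D, POLR1E, POLR2C, POLR2F, POLR2G, POLR2K and POLR3C, with POLR2K at −1.33 ± 0.10 (adjusted p = 4.98e-07) and POLR2G at −1.05 ± 0.15 (adjusted p = 0.000102) after quantile normalization. POLR1G and POLR3A were higher on every scale, but the size depended on it. It was 0.80 for both after quantile normalization, 0.73 and 0.69 after centring, and 0.24 and 0.20 as deposited.

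Genes that work beside the polymerases gave a mixed picture. Of 85 listed factors, 82 were measured and tested. Whether their calls held under the alternatives is not given here. In SKBR3 the share of all genes called was 23.7%, and 5.19% with SKBR3 fitted alone. In MDA-468, 19 fell (23.2%) and 10 rose, with a median of −0.10, beside 27% and 16.4% of all genes. In SKBR3, 14 fell (17.1%) and 2 rose, with a median of −0.19, beside 17.1% and 6.64% of all genes. The shares of these factors that fell were thus near or below those of all genes. Of 17 general Pol II factors, 5 fell in MDA-468, led by the TFIIH subunit GTF2H5 (−0.82 ± 0.10), and 1 rose, TBP (0.29 ± 0.09), which serves all polymerases and fell in SKBR3 (−0.35 ± 0.11, adjusted p = 0.0339). In SKBR3 4 of these factors fell (GTF2A1, CDK7, ERCC2 and TBP) and GTF2F1 rose (0.31 ± 0.09). GTF2A1, a TFIIA subunit, fell in both lines (−0.64 ± 0.12 and −0.47 ± 0.10). Of 20 pausing and elongation factors, 3 fell and 4 rose in MDA-468, among them the elongation factors ELL (0.58 ± 0.07) and SUPT6H (0.36 ± 0.07), and in SKBR3 2 fell, TCEA1 (−0.40) and SUPT4H1 (−0.30).

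Of 14 genes for polymerase assembly and tail phosphatases, 5 fell and 1 rose in MDA-468, and 3 fell in SKBR3 (35.7% and 21.4% lower, beside 27% and 17.1% of all genes). GPN3, which helps bring Pol II into the nucleus, fell in both lines (−0.71 ± 0.15 in SKBR3, adjusted p = 0.00633, and −0.52 ± 0.12 in MDA-468, adjusted p = 0.00455), as did URI1, an assembly chaperone subunit (−0.37 and −0.53), and the phosphatase CTDSPL (−0.53 and −0.58). Of 17 Pol III factors, 4 fell and 2 rose in MDA-468, and in SKBR3 2 fell (GTF3A and GTF3C1) and SNAPC4 rose (0.35 ± 0.11), which is 23.5% and 11.8% lower. GTF3A, the factor for the smallest ribosomal RNA gene, fell in both lines (−0.49 ± 0.11 in SKBR3 and −0.84 ± 0.09 in MDA-468), and SNAPC1 (0.86 ± 0.15) and BDP1 (0.67 ± 0.11) rose in MDA-468. Of 8 Pol I factors, TAF1D (0.48) and CAVIN1 (0.40) rose and the nucleolar factor UBTF (−0.35 ± 0.08) fell in MDA-468, and the initiation factor RRN3 fell in SKBR3 (−0.50 ± 0.16, adjusted p = 0.0436). Of 6 mitochondrial genes, TFB2M fell in MDA-468 (−0.67 ± 0.08), and TFAM (−0.64) and TFB1M (−0.73) fell in SKBR3.

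**Figure D4:**
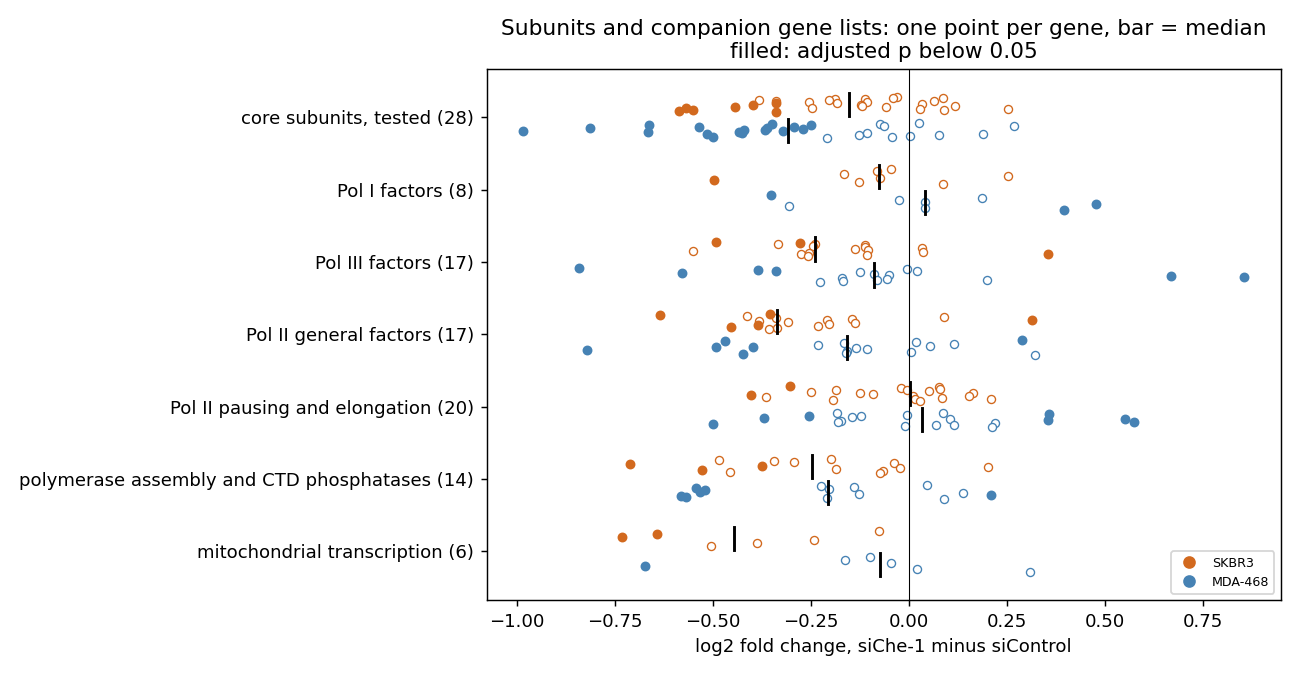
Log2 fold change with siChe-1 (x axis) for the tested core subunits and for each list of partner genes, 1 point per gene, coloured by line, with the median as a bar; filled points have an adjusted p below 0.05. The core subunits have filled points left of 0 alone, with medians of −0.15 in SKBR3 and −0.31 in MDA-468, while every partner list but the mitochondrial one has filled points on both sides in at least 1 line.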

How the data were processed

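The authors deposited log2 intensities per probe set. RMA and Affymetrix Expression Console are the tools named in the submitters' processing notes, with no versions and no word on which arrays were normalized together. RNA was extracted with Trizol and 6 micrograms were labelled with biotin, per the labels' protocols.

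Of 33297 probe sets, 19460 had 1 gene symbol, 1754 several and 12083 none. Gene IDs of 19429 were in a RefSeq gene table (GRCh38.p14), which changed 0 symbols. Where a gene had several probe sets (769 genes), the one with the highest mean was kept. Genes whose mean lay under percentile 30 (6.03) were left out. With limma 3.58.1 (lmFit and eBayes, R 4.3.3) a linear model of 4 group means took in all 10 arrays. The fit was first run on simulated noise, independent between arrays and genes, which does not test for deviations that arrays share. P-values were Benjamini-Hochberg adjusted over the 12892 genes. Fold changes are siChe-1 minus siControl with the SE of the fit, and intervals are at 95%. The number of arrays limits the precision.

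The members and lists were chosen with earlier results of these data known. The rule gave values on every array for the 12 members with the largest change among those called, and up to 3 genes per list and line with the smallest p or behind a count of 5 or fewer. POLR1A, POLR1F, POLR2A, POLR3A and POLR3GL were shown by array after their values were seen. The alternatives were other filters, further normalization, other probe set and variance choices, each line alone, a replicate block, and leaving out each array.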

Additional observations from a re-analysis of the deposited data

Results flagged for a closer look

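The siChe-1 change differed between the lines, by the test of the difference itself (SKBR3 change minus MDA-468 change, limma, adjusted p below 0.05), for 7 subunits, AATF and 12 partner genes. Among the subunits the difference was 0.55 for POLR1E, −0.65 for POLR1F, 0.56 for POLR2B, 0.45 for POLR2F, 0.86 for POLR2G, 0.55 for POLR2I and −0.44 for POLR3A. For AATF it was 1.05.

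Among partner genes the difference was above 0 for ELL3 (0.58), GTF2H5 (0.62), SSU72 (0.50) and TFB2M (0.43). It was below 0 for BDP1 (−0.77), CCNT2 (−0.68), CTDSP2 (−0.39), ELL (−0.42), SNAPC1 (−1.41), SUPT6H (−0.38), TBP (−0.64) and TFB1M (−0.68). The limma adjusted p of these partner differences ran from 0.00213 (SNAPC1) to 0.0468 (CCNT2). SNAPC1, a subunit of the complex that starts small nuclear RNA genes, was at −0.55 in SKBR3 and 0.86 in MDA-468, and TBP at −0.35 and 0.29. The SNAPC1 change in SKBR3 missed the threshold (limma adjusted p = 0.0501), while TBP was called in both lines.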

How the results depend on the processing

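The number of subunits called in MDA-468 (17) and between the siControl groups (20) stayed within 1.5 times under every alternative. Called subunits kept their sign for the siChe-1 changes and for their difference. Between the siControl groups they did not: with the values as deposited 7 of the 12 higher in SKBR3 turned below 0 (POLR1A −0.30, POLR1B −0.02, POLR2B −0.05, POLR2E −0.30, POLR3E −0.11, POLR3G −0.18 and POLR3K −0.26). The SKBR3 count of 7 became 4 with no filter and 0 with SKBR3 fitted alone, and it ranged from 1 to 12 when 1 array was left out. The difference between lines, 7 at first, ranged from 3 to 11 when 1 array was left out. Over all genes the SKBR3 count of 3057 became 669 with SKBR3 fitted alone, 1292 without SKBR3 siControl replicate 2, 1768 without SKBR3 siChe-1 replicate 2 and 5370 without SKBR3 siChe-1 replicate 1. The cause was not tested, beyond fewer arrays in the settings that leave some out.

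Arrays with the same replicate number did not deviate together: their deviations correlated at −0.56 in SKBR3 and from −0.49 to 0.0015 in MDA-468. Arrays with different numbers correlated at 0.56 in SKBR3, where 2 arrays a group make this the mirror value. In MDA-468 they correlated from −0.20 to 0.44. Whether arrays were paired under other numbers is not stated in the labels and cannot be told from these values. With the replicate number as a block, 2 subunits were called in SKBR3 (POLR3B and POLR3G), 13 in MDA-468 (without POLR1D, POLR2A, POLR2D and POLR2H) and 1 for the difference, and over all genes 1249 in SKBR3 and 1104 for the difference, against 2471 without it. With the SKBR3 numbers crossed, an alternative chosen after seeing the data, the counts were 7 in SKBR3 and 8 for the difference.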

Other observations

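The copies of POLR2J are read by probe sets listed under several symbols, which cannot be assigned to 1 gene. Of these, 4 list both POLR2J2 and POLR2J3. Their difference of means, siChe-1 minus siControl, ranged from −0.19 to −0.16 in SKBR3 and from −0.07 to 0.15 in MDA-468. The probe set at −0.19 and −0.07 does not list POLR2J. It also lists UPK3BL1, as does the one at −0.18 in SKBR3 and 0.03 in MDA-468. These values were not tested, and the single POLR2J probe set used above was at −0.43 in MDA-468.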
